A study of Mus musculus with 24 samples.

Results

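Wildtype mouse liver was compared before birth, on embryonic day E18.5, and after it, on postnatal day P2.5, across all genes of a dual-colour Agilent array. Each age had 4 libraries, so that 8 of the 24 libraries of the series were compared. The libraries were taken by their labels, as the wildtype livers of these 2 ages, and the comparison was chosen with earlier results of these data known. Total RNA of whole liver was read in Cy5 against a pooled mouse reference RNA in Cy3, and each value below is log2 of the liver signal over that of the reference for the brightest probe of a gene. A difference is the P2.5 mean minus the E18.5 mean, with its standard error (SE) and n = 4 against 4, and a difference of 1 is a doubling. The rest of the series holds wildtype liver at P7.5 and liver of mice without the glucagon receptor (GCGR KO) at the same ages. The labels give no strain, sex or feeding state, and leave unsaid whether each library was made from an animal of its own, so p-values measure the spread between libraries, which may be technical.

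Before birth the liver is supplied with glucose through the placenta, makes fatty acids, and is a main site of blood formation. At birth that supply ends and the pup turns to fat-rich milk. The newborn liver then burns fatty acids in mitochondria and peroxisomes, makes ketone bodies and glucose, and takes over the clearing of bile acids, bilirubin and foreign compounds. Blood-forming cells leave it for bone marrow and spleen over the days around and after birth. Because whole liver was extracted, fewer cells of a type and less RNA per cell cannot be told apart in any of the comparisons.

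Of 20144 genes with a symbol, 16475 were bright enough to be tested, and 3669 were not tested. Limma with Benjamini-Hochberg adjustment called 4632 genes at an adjusted p under 0.05, 28.1% of those tested. Of these, 2708 were higher at P2.5 (16.4% of those tested) and 1924 lower (11.7%). At least 2-fold differences were found for 383 higher (2.32%) and 308 lower genes (1.87%). The values of the 2 ages did not overlap for 4031 genes (24.5%), and the median difference of all genes tested was 0.02. When 1 library was left out, the number of genes called lay between 3809 and 5059. Counts of 1 or 2 members of a gene list often changed when a library was left out, and nothing is read from them.

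Libraries of the same age correlated across genes between 0.942 and 0.985, and libraries of different ages between 0.901 and 0.943. The first principal component (52.1% of the variance) separated the ages, and the second (17.7%) set P2.5 replicate 3 apart. Of 10 hepatocyte markers 3 rose and none fell (0 within the 3 slides that both ages shared), and their mean was between 4.64 and 4.96 in the E18.5 libraries and between 4.96 and 5.57 in the P2.5 libraries. E18.5 and P2.5 libraries shared 3 slides, on each of which 1 library of both ages was hybridised. Counts given within the shared slides come from those 6 libraries with slide as a block. Of all 16475 genes tested that fit called 1033 higher and 671 lower, against 2708 and 1924 in the main fit. Calls were thus fewer there for genes in general, and a smaller count is not read as a result about a list. Transcripts of the Y chromosome were high in 1 of 4 libraries at E18.5 and 3 of 4 at P2.5, so that sex may differ between the groups. A fit with that status as a covariate called 3405 genes, 1951 higher and 1454 lower, also fewer than the main fit. In the Cy3 channel alone, which carries reference RNA on every array, 90 genes (0.546%) passed the same test, and where one of them is named its Cy5 difference is given as well. Gcgr, which encodes the glucagon receptor and checks the labels, read 5.07, 5.74, 5.28 and 4.87 at E18.5, against 5.51, 5.75, 6.26 and 5.74 at P2.5, while the 8 KO libraries of these ages read between -0.01 and 0.38. The wildtype groups overlapped, and the difference of 0.58 ± 0.18 (adjusted p = 0.0297) did not pass without E18.5 replicate 1, 3 or 4 or P2.5 replicate 2 or 3, with adjusted p between 0.0514 and 0.0852. A KO library of P7.5, replicate 2, read 5.02 for Gcgr, against its label, and entered no fit given here except that of all 24 arrays among the alternatives.

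The largest difference of all genes tested was that of Apoa4, which encodes an apolipoprotein of triglyceride-rich particles. It read 0.98, 0.55, 1.31 and 0.66 at E18.5, against 5.89, 6.01, 6.04 and 5.95 at P2.5. The postnatal libraries lay close together and far above every fetal one. Apoa4 was 34.2-fold higher at P2.5 (5.1 ± 0.21, limma adjusted p = 2.16e-08), and the difference was 5.03, 5.49 and 4.64 within the 3 shared slides. Among 29 plasma protein and apolipoprotein genes 9 rose and 1 fell (median difference 0.17; 4 rises within the shared slides). Apoe, a ligand for lipoprotein uptake, rose by 0.70 ± 0.11 (adjusted p = 5.83e-04). Its Cy5 signal alone differed by 0.39 and did not pass (adjusted p = 0.0567), and its Cy3 signal differed by -0.34. Alb, which encodes albumin, read 5.04, 5.13, 5.24 and 5.48 at E18.5, against 5.05, 5.52, 5.79 and 5.29 at P2.5, and did not pass (0.19 ± 0.15, adjusted p = 0.383; Cy5 alone -0.05, Cy3 alone -0.47).

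Genes of mitochondrial fatty acid oxidation and ketogenesis rose as a group: 18 of 22 were higher at P2.5 and none was lower, with a median difference of 1.02. Cpt1a encodes the enzyme that commits fatty acids to entry into mitochondria. It read 1.52, 1.46, 1.66 and 1.46 at E18.5, against 3.18, 2.84, 3.32 and 3.01 at P2.5, so that every postnatal library lay above every fetal one. It rose 2.96-fold (1.56 ± 0.10, adjusted p = 8.88e-07). The next steps of the same route moved by similar amounts: Slc25a20, the carrier of acylcarnitines, rose by 1.44 ± 0.09 and Cpt2, which frees the acyl group inside the mitochondrion, by 1.66 ± 0.11. Acadl, a dehydrogenase of long chains, rose by 1.37 ± 0.10 and Decr1, which handles unsaturated chains, by 1.46 ± 0.10. The adjusted p of these 4 lay between 5.22e-07 and 2.50e-06. The count of rises was between 18 and 19 when any 1 library was left out, and 17 in the 6 libraries of the 3 shared slides.

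**Figure D1:**
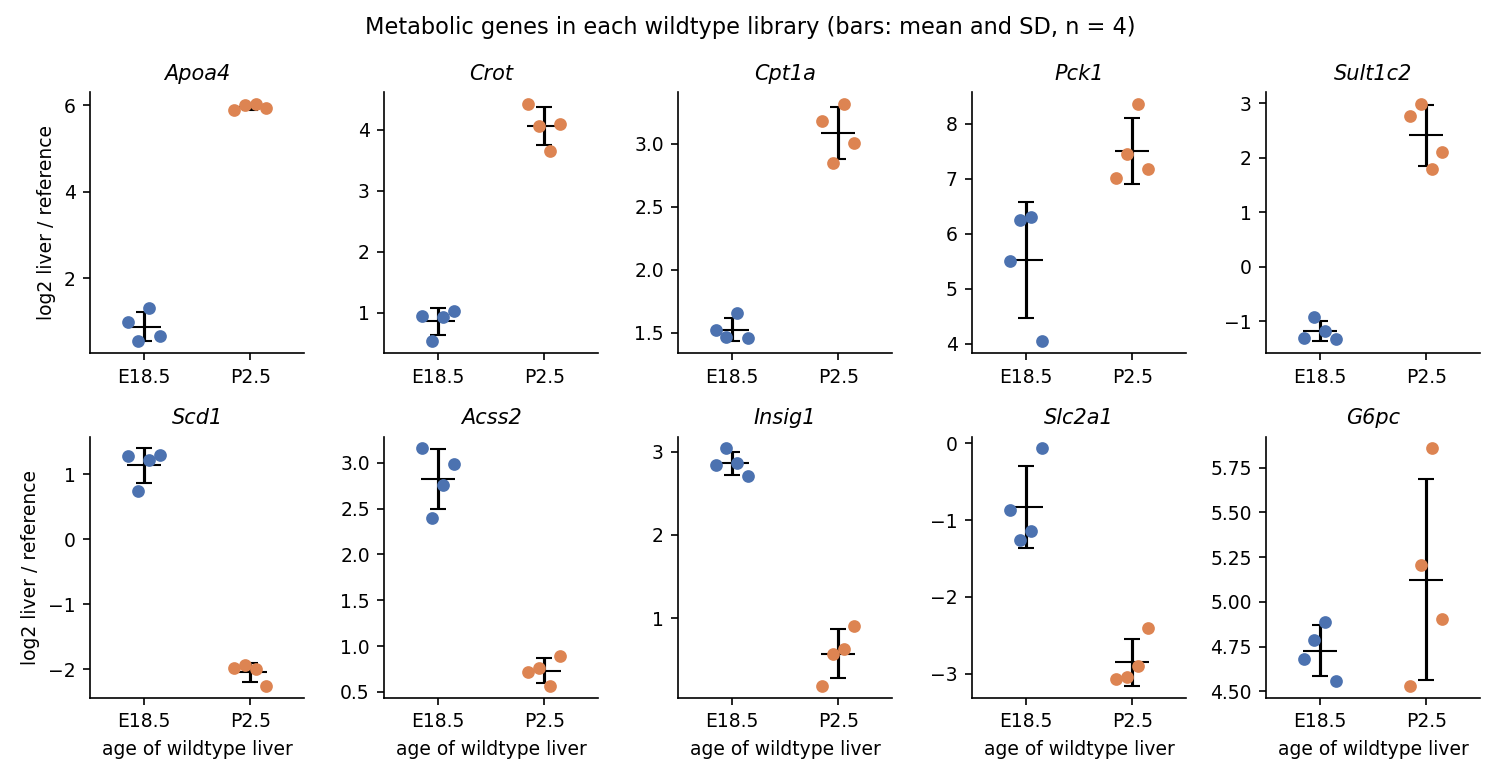
Log2 ratio of liver over reference (vertical axis) in each wildtype library at E18.5 (blue) and P2.5 (orange) for 10 metabolic genes. Points are libraries and black bars the mean and SD of 4. Apoa4, Crot, Cpt1a, Pck1 and Sult1c2 were higher in every P2.5 library, Scd1, Acss2, Insig1 and Slc2a1 were lower in every one, and G6pc overlapped; the axes differ between genes.

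Targets of PPARA, the nuclear receptor that senses fatty acids, and genes of peroxisomal oxidation moved with the mitochondrial ones. Of 20 tested, 15 rose and 1 fell (median 0.97). The gene that fell was Cidea, a lipid droplet protein, at -1.0 ± 0.30 (adjusted p = 0.0245), named after its values were seen because it was the exception. The call on Cidea was lost without E18.5 replicate 1 or 3 or P2.5 replicate 4, with adjusted p between 0.0633 and 0.0702. Its paralog Cidec read 0.14, 0.33, 0.56 and 0.21 at E18.5, against 3.22, 3.31, 2.48 and 2.52 at P2.5. Every P2.5 library was higher, and the fold was 5.94 (2.57 ± 0.18, adjusted p = 1.47e-06). Cidec was well above background in 3 of the 4 E18.5 libraries. Plin2, which coats lipid droplets, rose by 1.26 ± 0.09 (adjusted p = 1.68e-06). Acot2, a mitochondrial thioesterase, rose by 1.33 ± 0.11, and Gk, the glycerol kinase, by 1.15 ± 0.12.

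Crot, which moves fatty acyl groups shortened in peroxisomes onto carnitine, was among the 15 widest rises of called genes whose ages did not overlap. It read 0.94, 0.53, 0.93 and 1.03 at E18.5, against 4.43, 4.07, 3.65 and 4.1 at P2.5, a 9.21-fold difference (3.2 ± 0.17, adjusted p = 2.08e-07) with no overlap. Cyp4a14, a fatty acid omega-hydroxylase, rose by 1.71 ± 0.27 (adjusted p = 5.35e-04). Its Cy3 signal rose as well, by 1.88, and its Cy5 signal alone differed by 3.5. With the log ratio of Agilent Feature Extraction Cyp4a14 differed by 0.024 and did not pass (adjusted p = 0.964). Fgf21, a PPARA-driven liver hormone named after its values were seen, read -1.0, 0.71, 0.03 and -1.37 at E18.5, against 3.48, 3.14, 2.08 and -0.31 at P2.5. It was higher in 3 of the 4 P2.5 libraries than in any E18.5 library, while P2.5 replicate 4 lay within the fetal range (2.5 ± 0.68, adjusted p = 0.0156), and without P2.5 replicate 2 the adjusted p was 0.0502.

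The promoters of the PPARA list were searched on both strands for AGGNNA followed, after 1 base of any kind, by AGGNCA, a relaxed form of the direct repeat that PPARA with its partner RXR is known to bind. It was found in 3 of the 14 members with a promoter in the RefSeq table (GRCm38.p6, 250 bases before to 50 after the start), namely Fabp1, Creb3l3 and Cidec. Of all 27025 genes there 1.07% held it. In each such share a gene counted when any of its promoters matched. In the list of mitochondrial oxidation it was found in 1 of 18, Etfb. Etfb, an electron carrier of fatty acid oxidation, rose by 0.97 ± 0.10, with Cy5 alone at 0.67 and Cy3 alone at -0.31. Fabp1, a fatty acid carrier, rose by 0.79 ± 0.15 (adjusted p = 0.00177), and Creb3l3, a liver transcription factor, did not pass (0.08 ± 0.20, adjusted p = 0.819). The Cy5 signal of Creb3l3 alone was higher by 0.84 (adjusted p = 1.07e-05), and its Cy3 signal differed by 0.76. The 250 bases before the starts of Fabp1 (chr6:71199629-71199878, plus strand) and Cidec (chr6:113435761-113436010, minus strand) are shown because both genes rose. Fabp1, Creb3l3 and Etfb are named for their match. Capitals mark the match, which is on the opposite strand in both and begins 67 bases before the Fabp1 start and 214 before the Cidec start.
Fabp1: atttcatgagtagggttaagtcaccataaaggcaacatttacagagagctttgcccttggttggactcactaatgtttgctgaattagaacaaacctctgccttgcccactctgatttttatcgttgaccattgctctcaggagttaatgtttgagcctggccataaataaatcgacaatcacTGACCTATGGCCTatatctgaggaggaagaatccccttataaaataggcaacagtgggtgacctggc
Cidec: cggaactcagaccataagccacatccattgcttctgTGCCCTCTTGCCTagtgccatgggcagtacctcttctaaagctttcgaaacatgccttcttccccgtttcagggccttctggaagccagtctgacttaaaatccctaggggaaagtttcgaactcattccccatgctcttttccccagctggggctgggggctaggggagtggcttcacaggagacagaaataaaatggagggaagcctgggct
A match describes the letters of this window and shows no binding.

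Fatty acid synthesis moved the other way. Of 21 genes tested, 10 fell and 2 rose, with a median of -0.56, and 7 of the 10 fell at least 2-fold. Within the shared slides 6 fell. Scd1 and Scd2, which put the first double bond into saturated fatty acids, were among the 15 widest falls. Scd1 read 1.27, 0.74, 1.22 and 1.3 at E18.5, against -1.98, -1.93, -2.0 and -2.26 at P2.5, so that the ages were far apart. It was 9.04-fold lower at P2.5 (-3.18 ± 0.13, adjusted p = 2.16e-08). Scd2 read -0.25, -1.54, -0.39 and -0.13 at E18.5, against -4.01, -4.22, -4.18 and -4.25 at P2.5. E18.5 replicate 2 was the lowest fetal library for Scd2 and still lay above every postnatal one (-3.59 ± 0.24, adjusted p = 1.15e-06).

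Acss2, which activates acetate, fell from 3.16, 2.4, 2.76 and 2.99 to 0.71, 0.76, 0.56 and 0.89 (-2.09 ± 0.15, adjusted p = 1.54e-06). Fasn, the fatty acid synthase, fell by 1.27 ± 0.11 and Elovl6, which lengthens its product, by 1.5 ± 0.18, with adjusted p of 8.05e-06 and 6.27e-05. Thrsp, a regulator of lipogenesis, fell by 2.55 ± 0.31 (adjusted p = 8.31e-05). The 2 genes that rose were Elovl5 (1.08 ± 0.15) and Fads2 (0.79 ± 0.22), enzymes of polyunsaturated fatty acids, named after their values were seen because they were the exceptions. Without P2.5 replicate 3 the list held 4 rises. The count of falls lay between 10 and 12 when 1 library was left out.

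In cholesterol synthesis and uptake, 8 of 24 genes fell, 5 of them at least 2-fold, and 1 rose (median -0.31). Insig1, the membrane anchor that holds back the sterol-regulated transcription factors and is itself one of their targets, read 2.84, 3.04, 2.86 and 2.7 at E18.5, against 0.18, 0.57, 0.63 and 0.91 at P2.5. It was 4.88-fold lower without overlap (-2.29 ± 0.15, adjusted p = 8.88e-07). Mvd, a step of the mevalonate route, fell by 1.23 ± 0.15. The sterol response element type TCACNCCAC was found in the promoter of 1 of 16 members of each lipid synthesis list, Mlxipl and Hmgcs1, against 1.44% of all genes with a promoter. Neither gene passed (0.43 ± 0.17 and 0.17 ± 0.22). For Mlxipl the Cy3 signal differed by 0.90 and the Cy5 signal alone by 1.2.

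**Figure D2:**
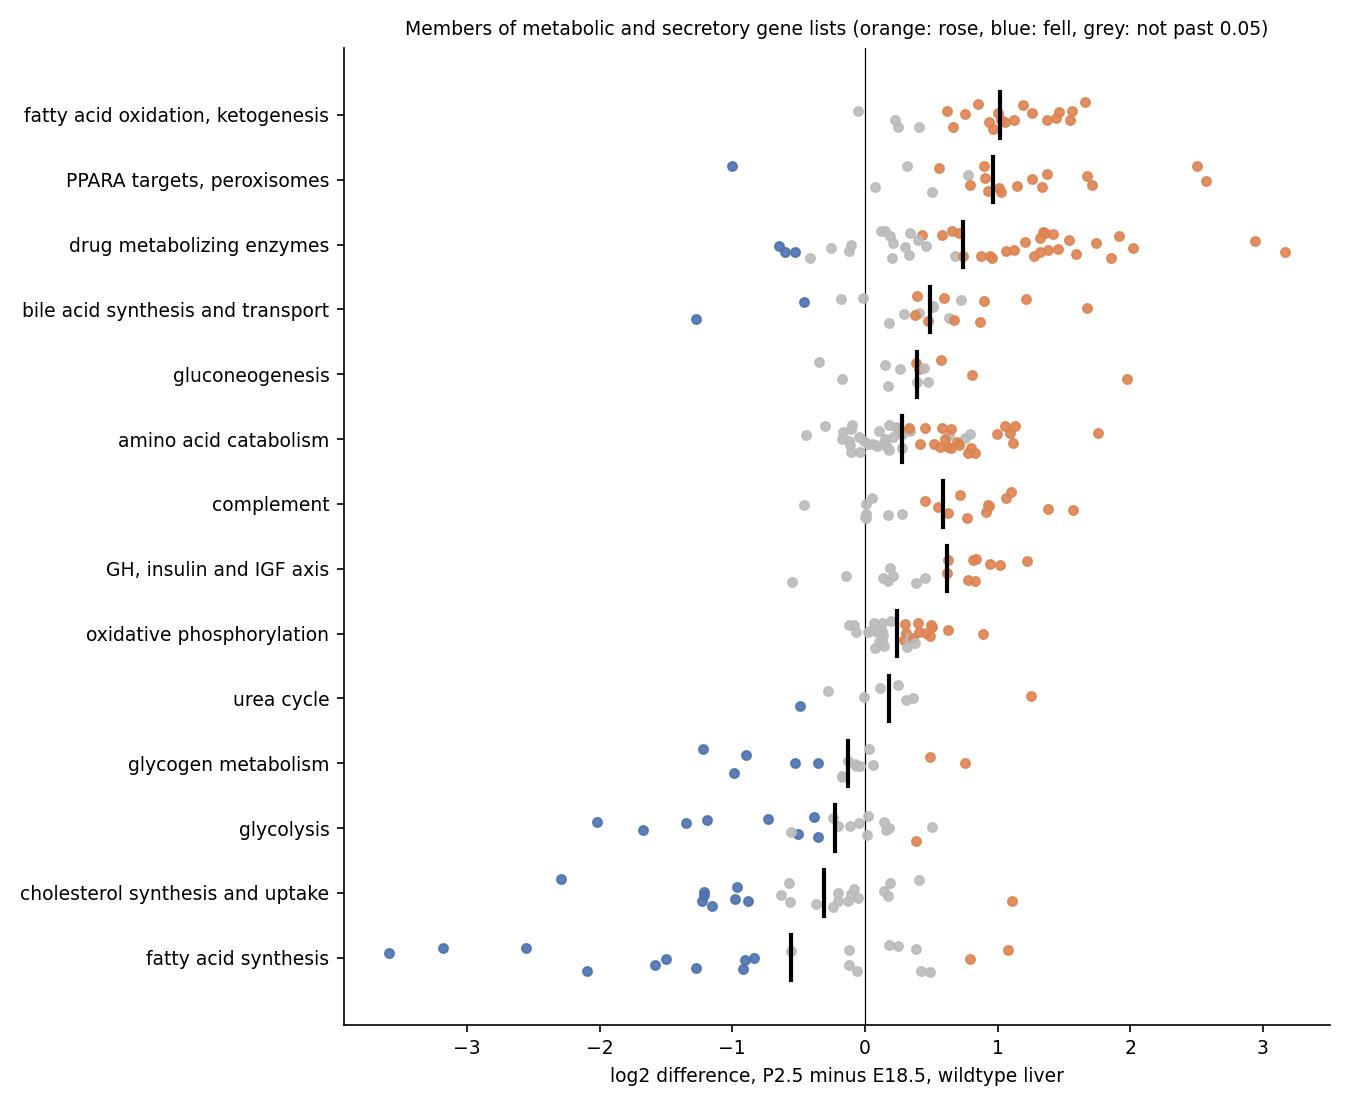
Log2 difference, P2.5 minus E18.5 (horizontal axis), of every tested member of 14 gene lists. Each point is a gene, orange where it rose, blue where it fell and grey where its adjusted p was not under 0.05, and black bars are list medians. Medians run from 1.02 for mitochondrial fatty acid oxidation to -0.56 for fatty acid synthesis, beside 0.02 for all genes tested.

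Of 45 drug-metabolizing enzymes, 27 rose and 3 fell (median 0.74; 20 rises and 1 fall within the shared slides), and 19 rose at least 2-fold. Cyp1a2, a cytochrome P450 of adult liver, read 0.30, 0.14, 0.41 and 0.22 at E18.5, against 3.36, 3.51, 2.97 and 3.01 at P2.5. All postnatal libraries were higher, by 7.69-fold (2.94 ± 0.18, adjusted p = 5.16e-07). Its Cy3 signal also rose, by 0.83, and its Cy5 signal alone by 3.57. Cyp1a2 was well above background in 3 of the 4 E18.5 libraries. Cyp3a44, of a subfamily that acts on steroids and drugs, rose from 4.88, 5.28, 4.77 and 3.52 to 7.93, 8.05, 7.37 and 7.77 (3.17 ± 0.30, adjusted p = 1.45e-05). Ephx1, the microsomal epoxide hydrolase, rose by 1.54 ± 0.11 and Cyp2b13 by 1.74 ± 0.16. Near-identical members of these families can share probe sequence, so their values may not be separate. The 3 that fell were Cyp2c70 (-0.65), Gstt1 (-0.60) and Cyp2c29 (-0.52), named after their values were seen for their direction.

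Sulfotransferases held 4 of the 15 widest rises. Sult1c2 read -1.31, -0.93, -1.18 and -1.34 at E18.5, against 2.77, 2.99, 1.79 and 2.11 at P2.5, 12.2-fold higher with no overlap (3.6 ± 0.22, adjusted p = 1.11e-06). Sult2a1, which sulfates steroids and bile acids, was uneven before birth, at 3.87, 5.55, 4.65 and 1.41, and read 6.92, 6.96, 8.68 and 7.38 afterwards. E18.5 replicate 4 was the lowest for Sult2a1, Sult2a4 and Sult2a6. Close members of a family can share probe sequence, so the values of these Sult2a genes may not be separate. All P2.5 libraries were still above all E18.5 ones for Sult2a1 (3.62 ± 0.68, adjusted p = 0.00165), and Sult2a4 and Sult2a6 differed by 3.86 ± 0.54 and 3.32 ± 0.51. Glyat, which joins glycine to acyl groups, rose by 2.36 ± 0.18 (adjusted p = 2.42e-06).

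Of 20 genes of bile acid synthesis and transport, 9 rose and 2 fell (median 0.49). Within the shared slides 3 rose and 1 fell, and with Y-linked status as a covariate 7 rose and 0 fell. Cyp7a1, the rate-limiting enzyme of bile acid synthesis, read 4.95, 4.08, 4.4 and 4.87 at E18.5, against 3.83, 3.96, 2.37 and 3.05 at P2.5. P2.5 replicate 3 was the lowest, and the ages did not overlap (-1.27 ± 0.34, adjusted p = 0.0151). Amacr, a peroxisomal step of bile acid formation, rose by 1.21 ± 0.13 (adjusted p = 4.14e-05). Abcg5, a subunit of a sterol exporter into bile, rose from 3.3, 3.56, 3.66 and 2.43 to 4.35, 4.28, 5.7 and 5.31 (1.67 ± 0.32, adjusted p = 0.00201). Abcb11, the bile salt export pump, read between 4.38 and 4.7 before and between 4.2 and 4.99 after birth (-0.01 ± 0.14, adjusted p = 0.962).

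Among 13 gluconeogenesis genes 5 rose and none fell (median 0.40; 3 rises within the shared slides). Pck1, which makes phosphoenolpyruvate from oxaloacetate and is induced by glucagon at birth, read 5.51, 6.25, 6.3 and 4.04 at E18.5, against 7.01, 7.45, 8.36 and 7.17 at P2.5. The lowest postnatal library lay above the highest fetal one, and the difference was 3.92-fold (1.97 ± 0.43, adjusted p = 0.00421). The Cy3 signal of Pck1 rose too, by 1.89, and its Cy5 signal alone differed by 3.79. With the log ratio of Agilent Feature Extraction Pck1 differed by 0.42 and did not pass (adjusted p = 0.4). The other 4 that rose were the cytosolic and mitochondrial aspartate aminotransferases Got1 (0.80 ± 0.17) and Got2 (0.57 ± 0.11) and the malate dehydrogenases Mdh1 (0.39 ± 0.11) and Mdh2 (0.41 ± 0.12). Mdh2 did not pass without P2.5 replicate 1 or 4, with adjusted p of 0.0515 and 0.0568. In Cy5 alone Mdh1 differed by 0.097 and Mdh2 by 0.22, and neither passed (adjusted p = 0.56 and 0.0506). Their Cy3 signals differed by -0.23 and -0.073. G6pc, the last step to free glucose, read 4.68, 4.79, 4.89 and 4.56 at E18.5, against 4.53, 5.2, 5.86 and 4.9 at P2.5. The ages overlapped (0.40 ± 0.22, adjusted p = 0.202). The Cy5 signal of G6pc alone was higher by 0.94 (adjusted p = 0.0228), and its Cy3 signal differed by 0.70.

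The core of the cyclic AMP response element, TGACGT, was found on either strand in the promoters of 4 of 12 gluconeogenesis genes, against 8.37% of all genes with a promoter. They were Pck1, Slc37a4, Mdh2 and Ppargc1a, of which Slc37a4 and Ppargc1a did not pass the test of the ratio (-0.34 ± 0.19 and 0.17 ± 0.35). The 250 bases before the Pck1 start (chr2:173152823-173153072, plus strand) are shown because Pck1 rose most of its list, with the match in capitals. It lies on the opposite strand and begins 91 bases before the start.
Pck1: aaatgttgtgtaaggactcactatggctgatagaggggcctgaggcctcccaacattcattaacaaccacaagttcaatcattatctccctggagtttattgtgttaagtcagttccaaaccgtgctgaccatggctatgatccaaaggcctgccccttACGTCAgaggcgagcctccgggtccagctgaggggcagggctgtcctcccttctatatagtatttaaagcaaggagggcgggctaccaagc
In the list of glucagon and cyclic AMP response genes 5 of 14 members with a promoter held it. Of the 16 members of that list tested, 2 rose and none fell (median 0.18), namely Gcgr and Crem. The count of rises was 0 without E18.5 replicate 1 or 3 or P2.5 replicate 2, 1 without E18.5 replicate 4 or P2.5 replicate 3, and 4 without P2.5 replicate 1.

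Glycolysis genes fell more often than they rose, with 8 lower and 1 higher of 20 (median -0.22; 5 falls within the shared slides). Slc2a1, the glucose transporter of fetal and dividing cells, read -0.87, -1.26, -1.14 and -0.07 at E18.5, against -3.06, -3.04, -2.9 and -2.41 at P2.5, 4.06-fold lower with no overlap (-2.02 ± 0.23, adjusted p = 5.56e-05). Pgam1 fell by 1.19 ± 0.11, Hk1 by 0.73 ± 0.10 and Slc16a3, which exports lactate, by 1.35 ± 0.13. Hkdc1, a hexokinase-like gene outside the list and among the 15 widest falls, dropped from 4.42, 3.25, 3.92 and 4.81 to 1.23, 1.25, 0.81 and 1.36 (-2.93 ± 0.26, adjusted p = 8.60e-06). Pklr, the liver pyruvate kinase, overlapped between the ages (0.14 ± 0.22, adjusted p = 0.68).

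In glycogen metabolism 5 of 15 genes fell and 2 rose (3 falls within the shared slides). Gbe1, the branching enzyme, read 1.35, 0.88, 1.17 and 1.18 at E18.5, against 0.34, 0.48, 0.09 and 0.09 at P2.5 (-0.89 ± 0.12, adjusted p = 2.09e-04), with no overlap. Stbd1, which tethers glycogen to membranes, fell by 1.22 ± 0.14 (adjusted p = 6.14e-05). Gys2, the liver glycogen synthase, differed by 0.06 ± 0.16 (adjusted p = 0.81). The Cy5 signal of Gys2 alone was higher by 0.39 (adjusted p = 0.04), and its Cy3 signal differed by 0.40. In the handling of galactose and fructose, sugars of the diet, 4 of 7 genes rose and none fell (1 rise within the shared slides), with Sord at 1.06 ± 0.11 and Galk1, which takes up galactose into metabolism, at 0.57 ± 0.10.

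Amino acid catabolism rose in part: 21 of 53 genes were higher and none lower (median 0.28; 11 rises within the shared slides). Tat, which starts tyrosine breakdown, read 3.52, 3.77, 4.03 and 1.71 at E18.5, against 4.92, 5.26, 5.47 and 4.39 at P2.5. E18.5 replicate 4 was far below the other fetal libraries, and the ages did not overlap (1.75 ± 0.42, adjusted p = 0.00731). Gldc, of glycine cleavage, rose by 1.06 ± 0.10, Glud1, the glutamate dehydrogenase, by 1.12 ± 0.14, and Bckdhb, of branched-chain amino acid breakdown, by 0.99 ± 0.10. Of 8 urea cycle genes 1 rose and 1 fell. The ornithine carrier Slc25a15 rose by 1.25 ± 0.20 (adjusted p = 5.70e-04), while Cps1, the entry step, read between 5.26 and 5.72 before and between 4.98 and 5.43 after birth (-0.28 ± 0.20, adjusted p = 0.321). In oxidative phosphorylation 12 of 30 genes rose and none fell, by small amounts (median 0.24), and 2 of 30 passed within the shared slides.

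Among complement genes 12 of 20 rose and none fell (median 0.59). C8a, of the membrane attack complex, read 4.61, 4.48, 4.62 and 4.59 at E18.5, against 5.81, 5.95, 6.22 and 5.86 at P2.5, 2.61-fold higher (1.38 ± 0.11, adjusted p = 5.53e-06). With the log ratio of Agilent Feature Extraction C8a differed by 0.11 and did not pass (adjusted p = 0.811). C3, the central component, was uneven before birth, at 4.7, 2.91, 4.79 and 4.87, and read 5.85, 5.71, 5.85 and 6.14 at P2.5. E18.5 replicate 2 lay far below the other fetal libraries, which themselves lay below every postnatal one (1.57 ± 0.34, adjusted p = 0.00463). The Cy5 signal of C3 alone differed by 0.72 and did not pass (adjusted p = 0.0883), and its Cy3 signal differed by -0.86. The count of rises lay between 8 and 12 when 1 library was left out, and was 7 with Y-linked status as a covariate.

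Acute phase genes were split, with 5 higher and 3 lower of 20, with 1 lower without P2.5 replicate 2 and 1 lower within the shared slides. Cp, which encodes the copper carrier ceruloplasmin, read 1.31, -0.30, 1.4 and 1.18 at E18.5, against 2.35, 2.56, 2.82 and 3.18 at P2.5 (1.83 ± 0.31, adjusted p = 8.95e-04), with E18.5 replicate 2 lowest. The metallothioneins Mt1 and Mt2, which bind zinc and copper, rose by 1.21 ± 0.22 and 1.47 ± 0.25. Saa3 fell by 1.48 ± 0.19 (adjusted p = 1.20e-04). Cxcl1, a neutrophil-attracting chemokine among the 15 widest rises, read -3.43, -2.93, -3.65 and -3.81 at E18.5, against -1.75, -0.66, -1.35 and 0.74 at P2.5 (2.7 ± 0.50, adjusted p = 0.00149). Of 12 genes of endoplasmic reticulum stress and protein folding 5 rose. Hspa5, the main chaperone of that compartment, read -0.01, -1.16, -0.17 and 0.33 before and 0.95, 1.2, 0.90 and 1.31 after birth (1.34 ± 0.25, adjusted p = 0.00147), again with E18.5 replicate 2 lowest. Its Cy5 signal alone differed by 0.79 and its Cy3 signal by -0.38.

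The axis of growth hormone, insulin and insulin-like growth factors (IGF) held 9 rises and no fall among 17 genes (median 0.62). Igf1, the growth hormone target, read 1.51, 1.46, 1.4 and 1.45 at E18.5, against 2.8, 2.33, 1.69 and 2.26 at P2.5. The fetal libraries lay close together, and P2.5 replicate 3 was the lowest of the postnatal ones (0.82 ± 0.18, adjusted p = 0.00528). Igfbp2, a binding protein of both IGFs, rose by 1.23 ± 0.18 (adjusted p = 3.18e-04). The count was 7 to 10 when 1 library was left out, 6 with Y-linked status as a covariate and 3 in the shared slides. Of 12 genes of the imprinted growth network 3 fell and 2 rose (1 fall with Y-linked status as a covariate), and Mest fell by 0.83 ± 0.11 (adjusted p = 1.83e-04).

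Afp, the fetal plasma protein alpha-fetoprotein, did not pass the test. It read 10.10, 10.04, 10.20 and 10.39 at E18.5, against 10.07, 10.39, 10.47 and 10.03 at P2.5, with overlapping ages (0.06 ± 0.13, adjusted p = 0.774). Gpc3, a fetal surface proteoglycan, likewise overlapped (-0.19 ± 0.16, adjusted p = 0.437). Of 12 fetal liver genes in all, 2 rose and 1 fell.

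Among 17 clock genes 3 rose, namely Hlf (1.22 ± 0.14), Clock (0.95 ± 0.14) and Nr1d2 (0.81 ± 0.15). The labels give no hour of collection. Of 12 genes of the pericentral zone, the hepatocytes around the central vein that depend on WNT signals, 8 rose and 1 fell (median 0.54; 5 rises within the shared slides). Axin2, a WNT target, read -0.42, -0.32, -0.35 and -0.56 at E18.5, against 0.94, 1.23, 0.32 and 1.47 at P2.5 (1.4 ± 0.18, adjusted p = 1.45e-04), and the transcription factor Tbx3 rose by 1.09 ± 0.08 (adjusted p = 2.34e-06). P2.5 replicate 3 was the lowest postnatal library for Axin2, and 5 of the 12 rose without it, as without E18.5 replicate 1 or P2.5 replicate 2. Of 10 periportal genes 2 rose and 1 fell. Of 19 hepatocyte transcription factors 8 rose and none fell, and 5 rose without E18.5 replicate 1, 4 with Y-linked status as a covariate and 3 within the shared slides. Hnf4a, the master regulator of hepatocytes, did not pass (-0.16 ± 0.16, adjusted p = 0.5), although its Cy5 signal alone was higher by 0.62 (adjusted p = 0.00527). Nr5a2, a regulator of bile acid synthesis, rose by 0.69 ± 0.13 (adjusted p = 0.0019).

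Most markers of erythroid cells, the red cell lineage, fell. Of 30 erythroid genes 20 fell and 2 rose (median -0.70), and the mean of the 30 lay between 3.89 and 4.12 in the E18.5 libraries and between 3.15 and 3.55 in the P2.5 libraries. Nfe2, a transcription factor of red cell and platelet precursors, read 5.37, 5.72, 5.44 and 5.66 at E18.5, against 3.85, 4.35, 4.48 and 4.56 at P2.5, 2.36-fold lower with no overlap (-1.24 ± 0.14, adjusted p = 4.94e-05). Fech, the last step of heme synthesis, fell from 3.74, 3.5, 3.52 and 4.19 to 2.34, 2.15, 2.05 and 2.84 (-1.39 ± 0.18, adjusted p = 1.05e-04). Epor, the erythropoietin receptor, fell by 0.65 ± 0.09. The count of falls was 18 to 23 when 1 library was left out and 9 within the shared slides.

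For 2 well-known red cell transcripts the ratio and the Cy5 signal differed. Hbb-bt, an adult beta globin, differed by 0.32 ± 0.14 (adjusted p = 0.107) and Alas2, the erythroid start of heme synthesis, by -0.29 ± 0.14 (adjusted p = 0.142). In both, the Cy3 signal differed between the ages, by -1.45 and -1.71, and the Cy5 signal alone by -1.08 and -1.97, with adjusted p of 4.83e-04 and 2.76e-05 for Cy5. Adult globin genes are near-identical, so one probe may read several. The embryonic globin Hbb-y fell from 2.84, 3.31, 2.8 and 2.84 to 1.89, 1.73, 1.61 and 1.97 (-1.15 ± 0.19, adjusted p = 7.61e-04). With the log ratio of Agilent Feature Extraction Hbb-y did not pass (adjusted p = 0.173). Of the 3 embryonic globins tested 2 fell (1 to 3 when 1 library was left out), and Hbb-bh1 did not pass (-0.33 ± 0.45, adjusted p = 0.639).

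The letters AGATAA, the core of sites for GATA factors such as the erythroid regulator GATA1, were searched on both strands in the erythroid promoters. They were found in 8 of 20 members with a promoter, against 12.7% of all genes with one: Alas2, Epb42, Tal1, Epor, Hemgn, Rhd, Kel and Trim10. Of these Alas2 and Hemgn did not pass the test of the ratio. The Cy5 signal of Hemgn alone was higher by 0.61 (adjusted p = 0.00269). The 250 bases before the starts of 3 members that fell are shown, with the match in capitals. Rhd and Kel carry blood group antigens, fell by 1.28 ± 0.19 and 0.61 ± 0.11 (adjusted p = 4.13e-04 and 0.00131) and were chosen for their match. Trim10, needed for terminal red cell differentiation, fell by 1.29 ± 0.18 (adjusted p = 2.56e-04). The regions are chr4:134864286-134864535 (plus strand), chr6:41704326-41704575 (minus) and chr17:36869324-36869573 (plus). The match begins 43, 56 and 163 bases before the start and is on the opposite strand in Trim10 alone of the 3.
Rhd: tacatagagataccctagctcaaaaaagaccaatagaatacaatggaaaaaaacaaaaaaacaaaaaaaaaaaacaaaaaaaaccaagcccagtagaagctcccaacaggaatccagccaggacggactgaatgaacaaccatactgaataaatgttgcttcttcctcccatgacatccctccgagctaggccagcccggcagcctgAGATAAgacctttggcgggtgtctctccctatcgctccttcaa
Kel: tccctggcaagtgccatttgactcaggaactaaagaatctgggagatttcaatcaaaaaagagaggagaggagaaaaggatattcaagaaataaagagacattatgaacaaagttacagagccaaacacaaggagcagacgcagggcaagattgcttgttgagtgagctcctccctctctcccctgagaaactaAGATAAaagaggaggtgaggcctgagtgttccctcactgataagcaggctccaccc
Trim10: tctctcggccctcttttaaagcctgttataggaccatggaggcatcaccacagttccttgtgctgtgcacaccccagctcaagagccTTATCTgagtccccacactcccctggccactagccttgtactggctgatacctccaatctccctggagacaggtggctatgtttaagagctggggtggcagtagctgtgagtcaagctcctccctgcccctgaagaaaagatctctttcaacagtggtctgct

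Genes of granulocytes fell too. Of 17 neutrophil genes 11 fell and none rose (median -1.13), and 10 fell at least 2-fold. S100a8, a subunit of calprotectin, read 7.75, 8.42, 7.93 and 7.91 at E18.5, against 5.01, 6.2, 6.9 and 6.51 at P2.5, with P2.5 replicate 1 lowest (-1.85 ± 0.31, adjusted p = 8.80e-04). Mmp9, a gelatinase of neutrophil granules, fell by 1.62 ± 0.21 (adjusted p = 1.45e-04). Mpo, of the earliest granules, read 6.09, 6.43, 6.27 and 6.43 before and 5.38, 6.12, 6.89 and 5.58 after birth and did not pass (-0.31 ± 0.25, adjusted p = 0.392). The mean of the 17 genes lay between 4.53 and 4.78 at E18.5, against between 2.76 and 4.37 at P2.5, and between 8 and 15 fell when 1 library was left out.

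The list with the lowest median was that of eosinophils, with 6 of 9 genes of eosinophils, basophils and mast cells lower (median -2.0) in every setting that left out 1 library. Prg2, the major basic protein of eosinophil granules, read 3.64, 4.14, 3.74 and 3.82 at E18.5, against 0.86, 1.62, 0.86 and 0.35 at P2.5, 7.52-fold lower (-2.91 ± 0.21, adjusted p = 1.95e-06). Its Cy3 signal fell as well, by 3.16, and its Cy5 signal alone fell by 6.14. Ear6, an eosinophil ribonuclease, read 3.31, 3.65, 3.59 and 3.3 before and 0.08, 0.20, 0.42 and 0.03 after birth, 9.71-fold lower (-3.28 ± 0.12, adjusted p = 2.16e-08). The Cy5 signal of Ear6 alone fell by 3.77 and its Cy3 signal by 0.48. Epx, the eosinophil peroxidase, fell by 2.1 ± 0.12 and Prg3 by 2.16 ± 0.12. Epx was well above background in 2 of the 4 P2.5 libraries.

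Early B cell genes fell in the same libraries. Of 13 genes of the B lineage 7 fell and 1 rose (median -0.57). Vpreb1, a surrogate light chain of precursor B cells, read 5.47, 5.27, 5.23 and 5.57 at E18.5, against 4.0, 2.95, 2.94 and 3.37 at P2.5 (-2.07 ± 0.22, adjusted p = 2.96e-05), and Igll1, its partner, fell by 1.83 ± 0.25. Ms4a1, the CD20 antigen of mature B cells, rose from -2.19, -2.2, -2.09 and -2.64 to -0.47, -0.82, -1.09 and -0.59 (1.54 ± 0.15, adjusted p = 1.45e-05). Of 10 progenitor genes 4 fell and none rose (median -0.13, 1 fall within the shared slides). Lmo2, a partner of GATA factors, differed by -1.26 ± 0.11 (adjusted p = 9.98e-06). The 6 that did not pass were Kit, Cd34, Flt3, Meis1, Runx1 and Spi1. Their differences lay between -0.13 and 0.09, with adjusted p between 0.554 and 0.965.

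T and NK cell genes were divided, with 4 higher and 3 lower of 12, with 1 lower without P2.5 replicate 1 and 0 lower within the shared slides. Gzma, the granzyme A of cytotoxic cells, read 4.35, 4.79, 4.34 and 4.61 at E18.5, against 5.75, 6.03, 5.47 and 6.31 at P2.5 (1.37 ± 0.26, adjusted p = 0.00184). Il2rb, a chain of the interleukin 2 and 15 receptors, rose by 1.17 ± 0.19, while Prf1, perforin, fell by 0.49 ± 0.10. Of 14 megakaryocyte and platelet genes 1 rose and 1 fell, and 5 fell without E18.5 replicate 4.

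**Figure D3:**
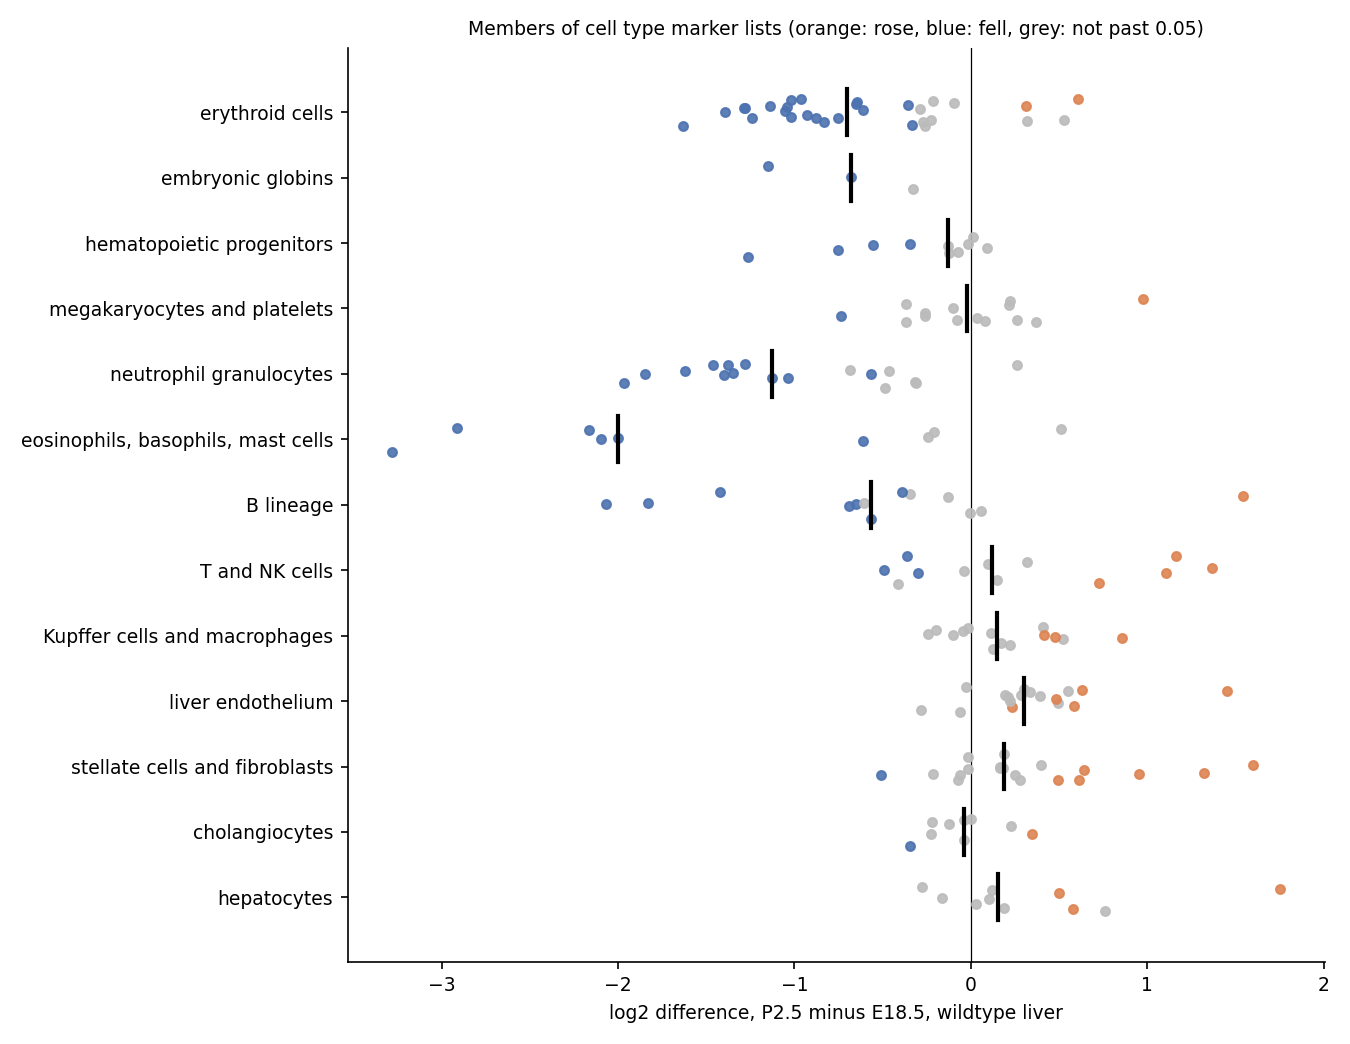
Log2 difference, P2.5 minus E18.5 (horizontal axis), of every tested member of 13 cell type marker lists. Each point is a gene, orange where it rose, blue where it fell and grey where its adjusted p was not under 0.05, and black bars are list medians. The lowest medians are those of the eosinophil, basophil and mast cell list (-2.0) and the neutrophil list (-1.13).

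By list median, markers of the resident cells of liver moved less than those of erythroid cells, granulocytes and the B lineage. Of 14 Kupffer cell and macrophage genes 3 rose and none fell (median 0.15; 1 rise within the shared slides). Clec4f, a lectin of Kupffer cells, read 5.62, 5.93, 5.79 and 5.57 at E18.5, against 5.68, 5.88, 6.27 and 5.54 at P2.5 (0.12 ± 0.15, adjusted p = 0.614). Of 17 endothelial genes 5 rose (median 0.30; 3 without E18.5 replicate 4 or P2.5 replicate 4, 3 with Y-linked status as a covariate and 3 within the shared slides), with the phosphatase Ptprb at 1.45 ± 0.20 (adjusted p = 1.77e-04). Of 19 stellate cell and fibroblast genes 6 rose and 1 fell (median 0.18; 3 rises without P2.5 replicate 2, 3 with Y-linked status as a covariate and 3 within the shared slides). Cxcl12, a chemokine that retains blood-forming cells, read -0.59, -1.07, -0.71 and -0.74 before and 0.80, 0.65, 0.59 and 1.24 after birth (1.6 ± 0.15, adjusted p = 1.11e-05). Of 9 cholangiocyte genes 1 rose and 1 fell, and of 6 mesothelial genes 3 rose (1 with Y-linked status as a covariate and 0 within the shared slides).

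Markers of tissues that dissection could add were also read. Of 7 pancreatic acinar genes 1 fell, Cela1 (-1.55 ± 0.10), and none rose, and their mean lay between 0.66 and 1.09 at E18.5, against between 0.36 and 0.74 at P2.5. Of 5 intestinal genes 1 rose and 1 fell. The one that rose was Fabp2, a fatty acid carrier, from 4.51, 5.31, 4.93 and 4.14 to 6.61, 7.0, 7.39 and 7.1 (2.31 ± 0.23, adjusted p = 1.84e-05). Villin, encoded by Vil1, fell by 0.74 ± 0.14. No tested marker of skeletal muscle (4) or adipocytes (3) passed. The part of these tissues in the results above was not tested.

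The cell cycle and ribosomal protein lists moved little by their medians. Of 38 cell cycle genes 7 fell and 1 rose (median -0.13). With Y-linked status as a covariate 2 fell, and within the shared slides 1 fell and 2 rose. Nusap1, a mitotic spindle protein, fell by 0.82 ± 0.11 (adjusted p = 1.32e-04), while Mki67, the proliferation marker, read 0.32, -0.79, 0.30 and 1.1 before and -0.22, 0.30, 0.19 and 0.06 after birth (-0.15 ± 0.28, adjusted p = 0.743). Of 39 cytosolic ribosomal protein genes 8 fell and none rose (median -0.07), with Rps3 at -0.45 ± 0.08, and 5 fell without P2.5 replicate 2, 5 with Y-linked status as a covariate and 0 within the shared slides. In antioxidant defence 6 of 12 genes rose and 1 fell. Prdx1, a peroxidase, read between 0.14 and 0.29 at E18.5 and between 0.99 and 1.17 at P2.5 (0.87 ± 0.07, adjusted p = 6.50e-06).

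Interferon response genes were uneven among the P2.5 libraries. Of 13 tested, 2 fell and none rose. The mean of the 13 genes was 0.94, 0.66, 1.0 and 0.99 at E18.5, against -0.05, 1.75, -0.10 and 2.35 at P2.5. Replicates 1 and 3 thus lay below every fetal library and replicates 2 and 4 above. Cxcl10, a chemokine induced by interferon gamma, read 1.83, 0.94, 1.62 and 0.49 at E18.5, against 1.27, 5.44, 0.33 and 6.83 at P2.5 (2.25 ± 1.13, adjusted p = 0.164), and was chosen after its values were seen. Rsad2, an antiviral enzyme, was lower in every P2.5 library than in any E18.5 library, at 1.98, 2.37, 1.72 and 3.21 against 4.27, 3.68, 4.1 and 4.78 (-1.89 ± 0.28, adjusted p = 3.67e-04). Without P2.5 replicate 3 the list held 3 rises and 1 fall, and without replicate 1 it held 2 rises and 1 fall.

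**Figure D4:**
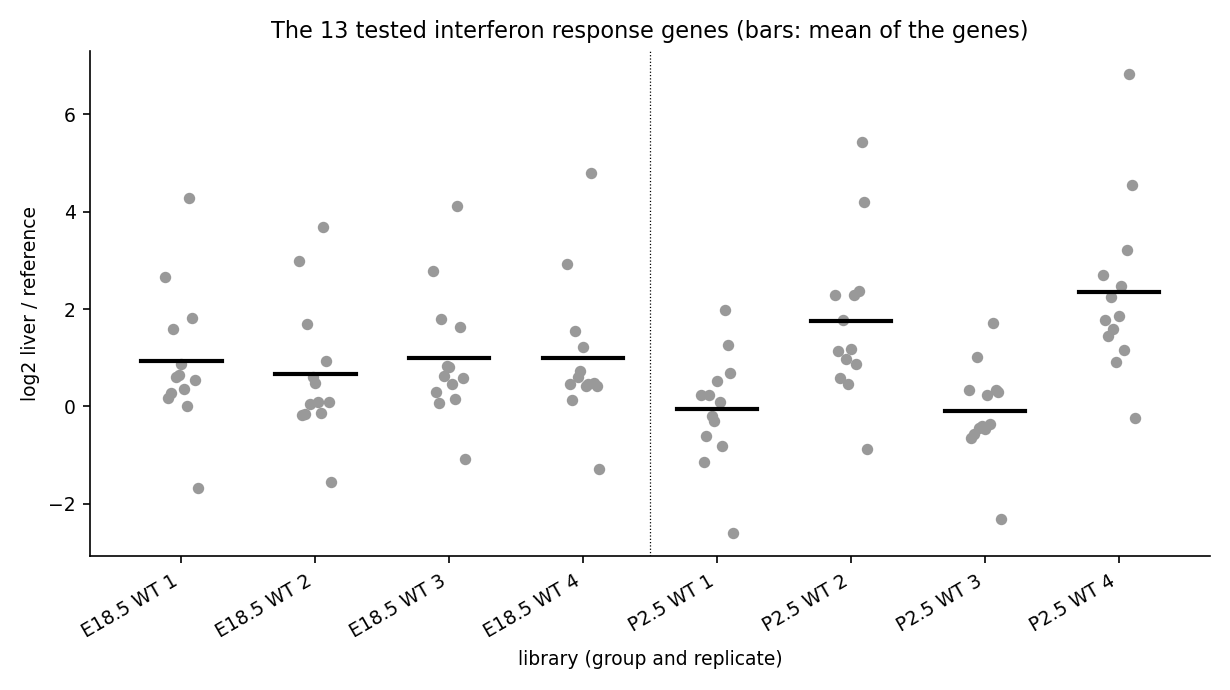
Log2 ratio of liver over reference (vertical axis) of the 13 tested interferon response genes in each wildtype library (horizontal axis). Grey points are genes. Black bars are the mean of the 13 genes, which was between 0.66 and 1.0 in the E18.5 libraries, -0.05 and -0.10 in P2.5 replicates 1 and 3, and 1.75 and 2.35 in P2.5 replicates 2 and 4.

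The changes across birth were checked within slides and in livers that the comparison did not use. Of the 4632 genes called, 95.2% had the same sign on all 3 slides shared by both ages, against 51.2% of all genes tested, although these slides hold 6 of the 8 libraries of the comparison. In the 6 libraries alone, with slide as a block, 1704 genes were called. In KO liver, from separate libraries, 6395 genes were called between the same ages (38.8%), 3000 higher (18.2%) and 3395 lower (20.6%). KO libraries of the 2 ages lay on different slides, so that age and slide cannot be told apart there. Of the 691 genes changed at least 2-fold in wildtype, 91.8% had the same sign in KO, 80.6% were called there in the same direction and 18 in the opposite one. The shares were lower for all 4632 genes called, of which 74.1% had the same sign in KO, 48.4% were called there in the same direction and 332 in the opposite one. Over all genes tested, 59.1% had the same sign and 26.9% were called in KO with the sign of the wildtype difference.

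Some of the metabolic genes described above moved the same way in KO and others did not. Apoa4 rose in KO by 4.26, Cpt1a by 1.46 and Crot by 2.82, and Scd1 fell by 2.45 and Insig1 by 2.08, with adjusted p between 2.09e-06 and 2.09e-04 for these genes. Hkdc1 fell by 4.34 and Sult2a4 rose by 5.48. In fatty acid oxidation 17 of 22 genes rose in KO and 2 fell (median 0.73). Of the 13 gluconeogenesis genes, 3 rose in KO and 4 fell (median -0.15). Pck1 and G6pc were among those that rose, by 2.63 (adjusted p = 1.85e-04) and 0.72 (adjusted p = 0.00139). For Pck1 the KO change minus the wildtype change was 0.66 ± 0.58 and did not pass (adjusted p = 0.442). Mdh1, which rose in the wildtype ratio, differed by -0.49 in KO (adjusted p = 0.0135). The KO changes of Got1 (-0.24), Mdh2 (-0.15), Apoe (0.0047) and Cidea (0.067) did not pass, with adjusted p between 0.209 and 0.988. The KO change minus the wildtype change passed for Mdh1, Got1, Mdh2 and Apoe, with adjusted p between 0.00234 and 0.0383. For Cidea it was 1.06 ± 0.40 and did not pass (adjusted p = 0.0675).

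Eosinophil genes differed between the genotypes. A fit of the 20 arrays without P7.5 KO called the difference between the KO and the wildtype change for 3454 genes (21%), and for 217 of the 691 (31.4%). Prg2 differed by 0.18 in KO (adjusted p = 0.162) against -2.91 in wildtype, and Ear6 by 0.34 (adjusted p = 0.489) against -3.28. The KO change minus the wildtype change was 3.09 ± 0.26 for Prg2 and 3.62 ± 0.39 for Ear6, with adjusted p of 4.89e-06 and 8.33e-05. Complement C3 differed by -0.69 in KO (adjusted p = 0.00958). In wildtype its ratio rose, while its Cy5 signal alone did not pass. The KO change of C3 minus the wildtype change was -2.26 ± 0.43 (adjusted p = 0.00221). Wildtype and KO arrays lay on separate slides scanned with different software versions, and these cannot be told apart from genotype.

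**Figure D5:**
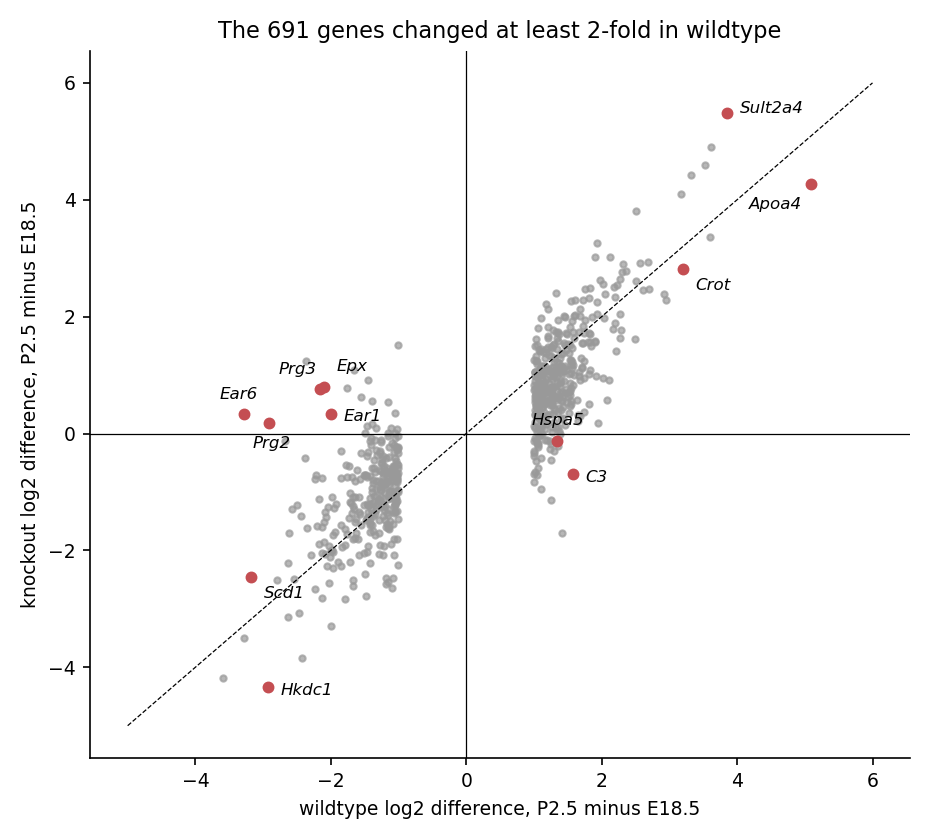
Log2 difference, P2.5 minus E18.5, in wildtype (horizontal axis) and KO liver (vertical axis) of the 691 genes that changed at least 2-fold in wildtype. Each point is a gene, the dashed line marks equal differences, and named genes are red. Of these genes 91.8% have the same sign in both, while Ear6, Prg2, Prg3, Epx and Ear1 lie far below 0 in wildtype only.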

How the data were processed

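Total RNA of liver was labelled with Cy5 and a universal mouse reference RNA with Cy3, with no dye swap, and hybridised to Agilent arrays, per the labels' protocols. The authors deposited scanner tables that give spot and background intensity as medians and a log10 ratio made by Agilent Feature Extraction (version 11 per the submitters' processing notes). They also deposited a table of log2 values whose scale and direction are not stated, and which correlated with the ratios computed here.

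From the deposited intensity, spots marked as non-uniform or as outliers were left out (0.478% to 0.836% of spots on the 8 arrays), background was corrected by normexp (offset 50), and each array was normalized by loess in limma 3.58.1 (R 4.3.3). Of 39429 probes, 26581 had 1 symbol by their RefSeq accession and 12848 had none. The probe brightest in Cy5 stood for a gene, and a gene was tested where 4 or more of the 8 arrays had that probe well above background. On these arrays between 28110 and 31362 probes were well above background and none was saturated, and the number of arrays limits the precision. Limma fitted the 12 wildtype arrays with 3 group means, with Benjamini-Hochberg adjustment over 16475 genes and a threshold of 0.05, and the 8 KO arrays in the same way. The fit was tested on simulated data.

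Named genes were Gcgr, the 15 widest rises and 15 widest falls among called genes with no overlap between ages and with 3 or 4 of the 4 arrays of the higher age well above background, without clone names and sex-linked genes, and from each list the first 2 members tested and up to 4 more with the lowest adjusted p. Some genes that this rule names are not reported here. Other genes are said to have been chosen after their values were seen or for a promoter match. The gene lists and the comparison itself were chosen with earlier results of these data known. Promoter sequences are from RefSeq (GRCm38.p6). Alternatives changed the background correction, signal, filter, probe choice, weights, arrays fitted and blocks, and left out each library. Y-linked status as a covariate, a further background setting, the Cy3 channel alone and the comparison of KO with wildtype changes were added after seeing the data.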

Additional observations from a re-analysis of the deposited data

Results flagged for a closer look

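In 15 of the 280 groups of 4 libraries read for single genes, 1 library lay far from the other 3. Chance gives such a gap in about 1 in 20 groups. E18.5 replicate 2 held the lowest value of C3 (2.91, others 4.7 to 4.87), Cp (-0.30, others 1.18 to 1.4), Elovl5 (-0.12, others 0.29 to 0.34), Mmp9 (0.45, others 1.18 to 1.29), Scd1 (0.74, others 1.22 to 1.3) and Sord (2.82, others 3.01 to 3.04). E18.5 replicate 2 held the highest value of Hbb-y (3.31, others 2.8 to 2.84) and Mlxipl (4.96, others 4.13 to 4.21). E18.5 replicate 4 held the lowest value of Prdx1 (0.14, others 0.27 to 0.29). E18.5 replicate 4 held the highest value of Rhd (6.02, others 5.33 to 5.44). P2.5 replicate 1 held the lowest value of Fasn (-0.082, others 0.24 to 0.25). P2.5 replicate 2 held the lowest value of Bckdhb (2.16, others 2.56 to 2.64). P2.5 replicate 3 held the lowest value of Elovl6 (0.11, others 0.60 to 0.67). P2.5 replicate 3 held the highest value of Etfb (3.72, others 3.24 to 3.3) and Nr1d2 (-0.37, others -1.15 to -1.11).

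The change from E18.5 to P2.5 was called in wildtype, its estimate in KO had the other sign, and the difference of the changes passed the threshold of limma for C3 (-2.26), Clock (-1.09), Ear1 (2.33), Ear6 (3.62), Epx (2.89), Got1 (-1.04), Hspa5 (-1.47), Mdh1 (-0.88), Mdh2 (-0.56), Prg2 (3.09), Prg3 (2.93), Rps3 (0.49) and Tbx3 (-1.12). Each value is the KO change minus the wildtype change on the log2 scale. The KO change itself passed for C3 and Mdh1, and for the others no opposite change in KO is shown. KO and wildtype lay on separate slides and, in KO, so did the ages, and genotype and slide cannot be told apart.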

How the results depend on the processing

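With the 8 compared arrays alone 3064 genes were called, 1762 of them higher. Within the 3 shared slides 1704 were called, 1033 higher and 671 lower. Background correction fitted on all spots gave 1281 lower genes. Replicate numbers did not pair the libraries: deviations of same-numbered libraries correlated between -0.06 and 0.21, and a replicate block called 2863 genes (1685 higher and 1178 lower), 2804 of them shared with the 4632. Leaving out 1 library gave between 3809 and 5059 calls, and between 4957 and 7945 in KO. The Feature Extraction log ratio called 3873 genes, 49.3% of them higher, and Cy5 alone 4462, 50.2% higher, against 58.5%. The direction reversed under Cy5 alone for Hbb-bt (-1.08) and Hnf4a (0.62), and the cause was not tested. Of 116 called genes among the 140 genes read one by one, 76 kept their call in every alternative run on them (25, but 24 for Cidec, Cyp1a2, Dnaic2 and Epx), and the Feature Extraction log ratio ended 22 calls and the shared slides 17. Among those ended by the Feature Extraction log ratio were C8a, Pck1, Cyp4a14 and Kel, with adjusted p between 0.4 and 0.964. Sult2a1 and Sult2a6 were also among them, with adjusted p of 0.123 and 0.0704. The difference between KO and wildtype changes was called for 3508 genes with all 24 arrays, against 3454.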

Other observations

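Genes of the axonemal dynein arms, the motors of cilia, were among the widest falls. Dnah17 read 3.15, 3.32, 3.01 and 3.16 at E18.5, against 0.90, 0.05, 0.44 and 0.69 at P2.5 (-2.64 ± 0.15, limma adjusted p = 3.91e-07). Dnah2 read 3.39, 3.58, 3.11 and 3.04 before and 0.87, 0.51, 0.72 and 0.50 after birth (-2.63 ± 0.16, adjusted p = 6.07e-07). The ages did not overlap for either gene. Dnaic2 was lower at P2.5 too, but was well above background in 1 of the 4 P2.5 libraries, and no size is given for it. Genes chosen after these values were seen did not follow: Dnaic1, another dynein intermediate chain, rose by 0.63 ± 0.19 (adjusted p = 0.025), and Foxj1, the regulator of motile cilia, did not pass (0.01 ± 0.09, adjusted p = 0.937).

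Genes of the interferon gamma response, also chosen after their values were seen, were high in P2.5 replicates 2 and 4 and lower in replicates 1 and 3. Ifng itself read 0.23, 0.32, 0.11 and 0.21 at E18.5, against 0.63, 2.99, 0.52 and 4.08 at P2.5 (1.84 ± 0.65, adjusted p = 0.0505). Gbp2, a guanylate-binding protein, read 0.55, 0.09, 0.58 and 0.42 before and 0.69, 4.19, 0.29 and 4.54 after birth (2.02 ± 0.78, adjusted p = 0.0729). Neither of them passed the test.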
